A study of Mus musculus with 20 samples.

Results

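Tcf4 Cut&Tag gave peaks at 2228 places in the genome that lay outside every ATAC consensus region of the same lineage. They were selected on 2 measured readouts. A region had to hold a Tcf4 peak in both Tcf4-tag libraries, and it had to share no base with the deposited consensus regions of open chromatin. The peaks of the 2 Tcf4-tag libraries merged into 30960 regions outside the mitochondrial genome, of which 14085 held a peak of each library. Of these reproducible Tcf4 regions, 11857 lay on a consensus region and the other 2228 are the sites described here. Tcf4 peak strength and accessibility of these sites are therefore given as a description, without a test.

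The study asked how Tcf4 restricts the fate of cells derived from Nkx2.1-expressing progenitors, and Cut&Tag and ATAC-seq were run on GFP-positive cells of that lineage, sorted from the dissected neocortex of pups at postnatal day 7 or 8. WT pups carried Nkx2.1-Cre with the Ai3 reporter, Tcf4 cKO pups carried in addition homozygous floxed Tcf4 alleles (Tcf4 f/f), and Tcf4 occupancy was read with an anti-Flag antibody in the Tcf4-tag mouse, in which Cre adds a Flag/HA tag to the C-terminus of endogenous Tcf4. All groups share Nkx2.1-Cre, which acts from early ventral progenitors onward, so each library averages over every sorted descendant of them. Each genotype had 2 ATAC-seq libraries and 2 for every histone mark, the Tcf4-tag line had 2 libraries, and no antibody control library was used here. Whether libraries came from separate litters or pooled animals was not stated, so the spread between them may be technical. The read depth is unknown, since the files list peaks only, and peak numbers ran from 15085 to 72790 per library. At the start sites of marker genes, H3K27ac lay in both WT libraries at the astrocyte genes Slc1a3 and Sox9 and at Nkx2-1. It lay at none of Aldh1l1, Olig2, Sox10, Dlx1, Lhx6, Cx3cr1, Csf1r, Cldn5, Pecam1, Tbr1 and Neurod6 in any library. Pdgfra and Gad1 had it in 1 WT library each, and Pdgfra also in both Tcf4 cKO libraries. H3K27me3 lay in all 4 libraries at Nkx2-1, Pdgfra, Gad1, Dlx1, Lhx6, Cldn5, Tbr1 and Neurod6. At Sox9 it lay in both Tcf4 cKO libraries.

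Tcf4 is a basic helix-loop-helix transcription factor of the E protein class. Such factors bind DNA as dimers, with themselves or with tissue-specific partners, at the E-box, whose general form is CANNTG and whose core CAGCTG is a common form for E proteins. Active promoters and enhancers usually carry H3K27ac, enhancers also carry H3K4me1, and Polycomb-silenced chromatin carries H3K27me3. Cut&Tag cuts DNA beside an antibody with a tethered transposase, and ATAC-seq lets a free transposase cut open chromatin, so both read DNA that a transposase could reach.

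The sequences below show the kinds of DNA under these Tcf4 peaks. Each is read 5′ to 3′ on the plus strand of GRCm38 (mm10) and covers 75 bp on either side of the Tcf4 summit, with CAGCTG in capitals. The first 3 are single-copy sites with repeated E-box cores, and the fourth is the one site near an oligodendrocyte lineage gene that held the core.
Intron of Dnah2, chr11:69459962-69460112: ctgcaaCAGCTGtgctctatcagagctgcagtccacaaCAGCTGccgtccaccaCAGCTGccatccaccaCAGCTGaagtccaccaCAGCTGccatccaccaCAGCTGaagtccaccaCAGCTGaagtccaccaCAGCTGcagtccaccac
Intron of Borcs5, chr6:134676024-134676174: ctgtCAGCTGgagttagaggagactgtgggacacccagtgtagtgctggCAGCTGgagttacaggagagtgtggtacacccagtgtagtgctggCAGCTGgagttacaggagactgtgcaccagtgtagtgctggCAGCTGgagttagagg
Intron of Ryr2, chr13:11959840-11959990: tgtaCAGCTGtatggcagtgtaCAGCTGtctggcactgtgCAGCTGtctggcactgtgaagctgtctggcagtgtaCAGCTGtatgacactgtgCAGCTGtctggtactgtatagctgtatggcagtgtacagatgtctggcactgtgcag
Intron of Tnr, chr1:159574847-159574997: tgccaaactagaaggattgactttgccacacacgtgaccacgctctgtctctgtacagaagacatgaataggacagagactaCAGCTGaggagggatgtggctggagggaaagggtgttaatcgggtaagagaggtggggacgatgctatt
The next 3 come from repeat-masked or multi-copy DNA, namely the 2 strongest peaks and the largest sequence family, and none holds the core.
Strongest site, intron of the lincRNA Gm33838, chr9:35305357-35305507: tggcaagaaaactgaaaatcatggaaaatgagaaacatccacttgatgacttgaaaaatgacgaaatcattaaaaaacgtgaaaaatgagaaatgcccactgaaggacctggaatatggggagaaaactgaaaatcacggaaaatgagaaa
Second strongest site, intergenic, chr12:3109923-3110073: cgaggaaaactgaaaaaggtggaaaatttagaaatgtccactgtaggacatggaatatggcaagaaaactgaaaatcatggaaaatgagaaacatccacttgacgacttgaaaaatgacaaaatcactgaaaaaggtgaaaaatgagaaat
Strongest member of the largest family, chr8:33151623-33151773: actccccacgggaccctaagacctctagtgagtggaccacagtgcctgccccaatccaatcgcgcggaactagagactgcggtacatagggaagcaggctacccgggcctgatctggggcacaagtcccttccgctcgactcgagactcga

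Median Tcf4 strength at the sites was near that on consensus regions, and the sites also had a tail of very strong peaks. Fold enrichment over the local background, as MACS2 gives it, had a median of 5.12 in library 1 and 5.29 in library 2, against 5.56 and 5.34 at Tcf4 regions on consensus regions. The highest values were 26.8 and 26.7 outside, and 21.0 and 23.4 on consensus regions. In both libraries 68 sites outside (3.05%) exceeded a fold enrichment of 12, and 9 regions on consensus regions (0.0759%) did so. The sites were narrower, with a median width of 627 bp against 841 bp. Their summits in the 2 libraries lay a median of 78 bp apart.

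The rule has a sharp edge but few sites stood near it. The median distance to the nearest consensus region was 26589 bp, 1662 sites (74.6%) lay over 10 kb away, and 3 lay within 100 bp. The nearest was chr11:101815435-101816200 by Etv4, 14 bp away, with fold enrichments of 3.98 and 4.20. On the other side of the edge, chr5:66384192-66384710 by Apbb2 shared 10 bp with a consensus region and had 3.64 and 4.10.

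**Figure D1:**
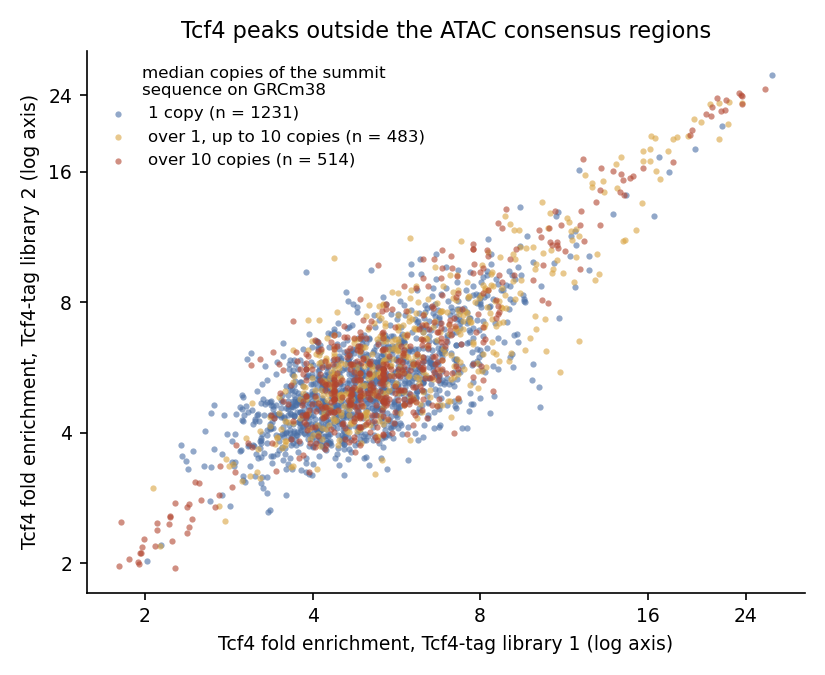
Tcf4 fold enrichment of the 2228 sites in Tcf4-tag library 1 (x, log axis) and library 2 (y, log axis). Each point is a site, coloured by the median number of genomic copies of the 32-base stretches around its summit, and most of the sites above a fold enrichment of 12 have more than 1 copy.

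Many of these sites lay in DNA that the genome holds more than once. The number of exact copies on GRCm38, on both strands, was counted for every stretch of 32 bases (32-mer) within 75 bp of each summit. The median over the window was above 1 copy at 997 sites (44.7%, 95% Wilson interval 42.7 to 46.8) and at 240 regions on consensus regions (2.02%, 1.79 to 2.29). It was above 10 copies at 514 sites (23.1%). Sites with a median of 1 are called single-copy here, a class that is not free of repeats. At 105 of these 1231 sites (8.53%) at least 50% of the window was soft-masked. At 640 sites (28.7%) at least 50% of the window was soft-masked as repeat in the reference, against 1.66% on consensus regions. Copies rose with Tcf4 strength: 31.7% of the 511 sites whose smaller fold enrichment was under 4 were multi-copy, 52.9% of the 276 between 6 and 8, and 86.8% of the 68 at 12 or above. By the study's methods only uniquely mapped read pairs were kept, yet peaks were listed at these sites, and the position of a read in multi-copy DNA is uncertain. How far alignment, copy number of the animals or local background set these peaks was not tested.

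The strongest peaks stood at repeats. The strongest site, chr9:35305125-35305704, lies in an intron of the lincRNA Gm33838 and is wholly soft-masked, although the median of its exact 32-mer copies was 1. Its Tcf4 fold enrichment was 26.8 and 26.7. The same site had a peak in all 16 other libraries, with 24.2, 24.2, 23.6 and 23.7 in ATAC-seq, 23.2 to 25.5 in the 4 H3K27ac libraries and 12.5 to 16.2 in the 4 H3K27me3 libraries. Peaks of an active and of a repressive mark and of open chromatin thus stood at 1 place, in both genotypes. The second strongest site, chr12:3109733-3110225, had Tcf4 values of 26.0 and 24.8 and a median of 43 copies, and peaks of 16.3 to 22.4 in the H3K4me1 and H3K27ac libraries, while no H3K27me3 library had a peak there. A repeat of this AT-rich kind, the major satellite, is known from mouse pericentromeric heterochromatin. Whether these windows belong to it was not tested.

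Repeats made up most of the 10 strongest sites outside chromosomes 18 and Y. Of these 10, 6 had 1795 to 1798 copies in the median. Each of the 6 touched or overlapped an assembly gap, a run of at least 1000 undetermined bases. Within 10 kb of such a gap lay 53 sites (2.38%), against 13 regions on consensus regions (0.110%). The strongest of the 6 was chr3:159939269-159939835 (Tcf4 23.6 and 23.9), 91101 bp from the start site of Wls. It had ATAC-seq peaks of 19.1 to 24.4 and H3K27ac peaks of 18.6 to 22.4 in all libraries. chr12:97061323-97061800 (23.6 and 23.1) differed in kind, since 100% of its 32-mers also occur on the mitochondrial genome. It had ATAC-seq peaks of 21.0 to 23.8, no H3K4me1 peak, and H3K27ac peaks in replicate 2 of each genotype only. Mitochondrial 32-mers occurred at 8 sites in all, against 1 region on consensus regions. Another of these, chr6:9889811-9890266 (15.7 and 17.0), lay 940375 bp from the start of its nearest protein-coding gene, the interneuron gene Nxph1. It had ATAC-seq peaks of 9.06 and 8.54 in WT and 14.1 and 14.3 in Tcf4 cKO and no peak of a mark. None of the 10 strongest sites held CAGCTG.

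The most enriched peaks of other libraries fell on the same sites. Of the 29 peaks over a fold enrichment of 12 in H3K27ac WT library 1, 28 overlapped a site outside the consensus regions, and 25 overlapped a multi-copy one. In the 4 H3K4me1 libraries 24 to 29 of 26 to 31 such peaks overlapped one of these sites, and in the 4 H3K27me3 libraries 11 to 18 of 12 to 18. ATAC-seq was different, with 73 to 114 of 877 to 2320 such peaks on these sites.

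Sequence shared between sites grouped 656 of them (29.4%) into 71 families, in which each site holds a 32-mer in common with another. Of the 68 sites above a fold enrichment of 12, 59 belonged to a family. The families differed in their marks. The largest family had 218 sites on 21 chromosomes, with a median smaller fold enrichment of 4.69 and a median of 2258 copies. There, 216 sites had no ATAC-seq peak in any library and 197 had no peak of any other assay either. The family that holds the repeat by Wls had 69 sites, a median smaller fold enrichment of 12.4, H3K4me1 in both WT libraries at 42 and H3K27ac at 33. Another family of 64 sites had H3K27ac at 53 and no ATAC-seq peak in any library at 52. A family of 42 sites on 16 chromosomes had a median of 1 copy, so single-copy sites also shared sequence. Repeated DNA at these sites was thus of several kinds, with different peaks of other libraries.

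**Figure D2:**
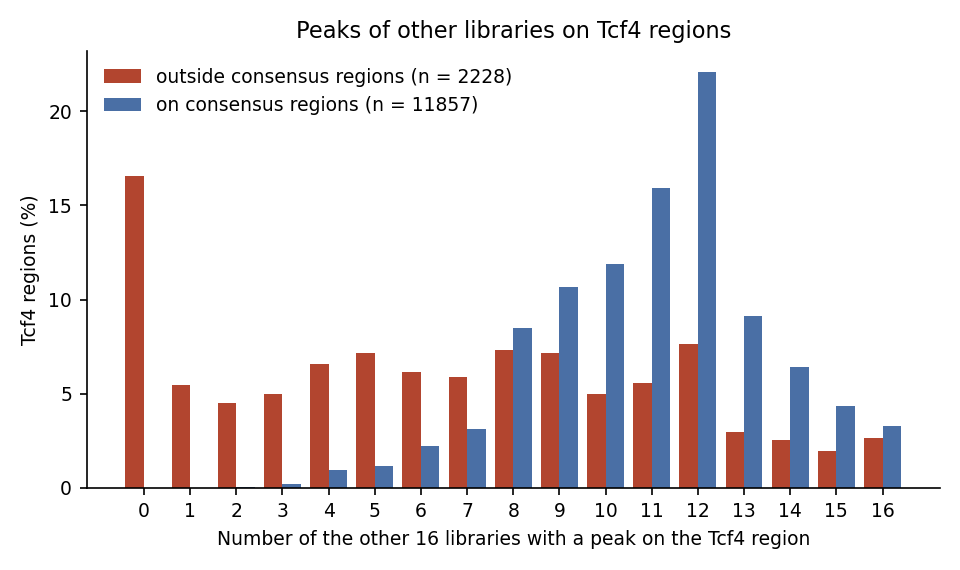
Share of Tcf4 regions (y, in percent) by the number of the other 16 libraries with a peak on them (x), for the 2228 regions outside (red) and the 11857 regions on consensus regions (blue). Outside, 16.6% had no peak of any other library, and on consensus regions 12 was the commonest number. The 16 libraries include the 4 ATAC-seq libraries behind the consensus regions. The class without any peak is therefore empty on consensus regions by the rule, and nothing is read from that.

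Lying outside the consensus regions did not mean lacking ATAC-seq peaks. A peak was called at 832 sites (37.3%) in all 4 ATAC-seq libraries, at 558 in 1 to 3 libraries and at 838 (37.6%) in none. Where a peak was present it was lower than on consensus regions. In WT library 1 the median ATAC-seq fold enrichment was 5.65 at 1202 sites outside and 8.99 at 11850 regions on consensus regions, and in WT library 2 it was 6.41 and 9.26. The rule used the consensus regions that the authors made from these libraries, and no test was made of these values. Whether masked or blacklisted regions were removed when the consensus regions were made is not given in the sources used here, so lying outside them is not the same as being closed.

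The 3 accessibility classes differed in place and in sequence. Sites with an ATAC-seq peak in all libraries lay at promoters in 381 of 832 cases (45.8%) and had H3K27ac in both WT libraries in 504 (60.6%). Sites with no ATAC-seq peak lay at promoters in 57 of 838 cases (6.80%), had H3K27ac in 191 (22.8%) and were multi-copy in 640 (76.4%). Of sites with 1 to 3 ATAC-seq peaks, 156 of 558 (28.0%) held CAGCTG, against 15.5% with 4 ATAC-seq peaks and 14.7% with none. Among single-copy sites those with 1 to 3 and with no ATAC-seq peak were alike, at 141 of 434 (32.5%) and 65 of 198 (32.8%), while 116 of 599 with 4 ATAC-seq peaks (19.4%) held the core.

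Away from gene starts, Tcf4 sat in introns and between genes. Promoters, taken as 1 kb on either side of any annotated start site in GENCODE M21, overlapped 506 sites (22.7%) and 7918 regions on consensus regions (66.8%). The difference of -44.1 percentage points had a 95% Newcombe interval of -46.0 to -42.1, a range that covers counting error over regions and not variation between animals. By the summit, 873 sites (39.2%) lay in introns, 818 (36.7%) between genes, 470 (21.1%) at promoters and 67 (3.01%) in other exons. The median distance to the nearest protein-coding start site was 19843 bp outside and 284 bp on consensus regions.

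H3K27ac, the mark of active elements, was less frequent at these sites in every library. In WT it covered 46.5% and 42.5% of the sites in replicates 1 and 2, against 89.3% and 85.5% of the regions on consensus regions. In both WT libraries together, 806 sites (36.2%) had it, against 9644 regions (81.3%), a difference of -45.2 points (-47.2 to -43.0). The gap was smaller at promoters, at -25.8 points (-30.0 to -21.7). It was -46.5 points (-49.2 to -43.7) among single-copy regions and -38.2 (-41.3 to -35.0) among single-copy regions away from promoters. Where an H3K27ac peak was present, its fold enrichment was alike, with medians of 4.53 outside and 4.60 on consensus regions in WT library 1.

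H3K4me1 differed less. The WT libraries covered 44.6% and 50.6% of the sites and 54.4% and 71.1% of the other regions, and both WT libraries covered 38.3% and 49.5%, a difference of -11.2 points (-13.4 to -8.97). Among single-copy regions the interval reached 0, with -2.55 points (-5.47 to 0.386), and among single-copy regions away from promoters it was -24.2 (-27.7 to -20.5). Away from promoters over all copy numbers, H3K4me1 lay at 35.6% of the 1722 sites and 71.4% of the 3939 other regions. That difference was -35.8 points (-38.4 to -33.1), beside -33.0 (-35.5 to -30.3) for H3K27ac in the same regions. At promoters the order turned, with H3K4me1 at 47.6% of the 506 sites and at 38.7% of the 7918 regions on consensus regions, +8.96 points (4.51 to 13.4).

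H3K27me3 lay at 365 sites (16.4%) and 1685 other regions (14.2%) in both WT libraries, a difference of 2.17 points (0.560 to 3.88). Its sign was not stable, since either WT library alone gave -0.496 and -3.15 points, and single-copy regions gave -2.80 (-4.58 to -0.810). Within the sites, 22.6% of the multi-copy and 11.4% of the single-copy ones carried H3K27me3. Counting the 3 marks together, 951 sites (42.7%) had none of them in both WT libraries, against 8.16% of the other regions. A further 340 (15.3%) had H3K4me1 alone, 314 (14.1%) H3K4me1 with H3K27ac, and 156 all 3 marks.

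**Figure D3:**
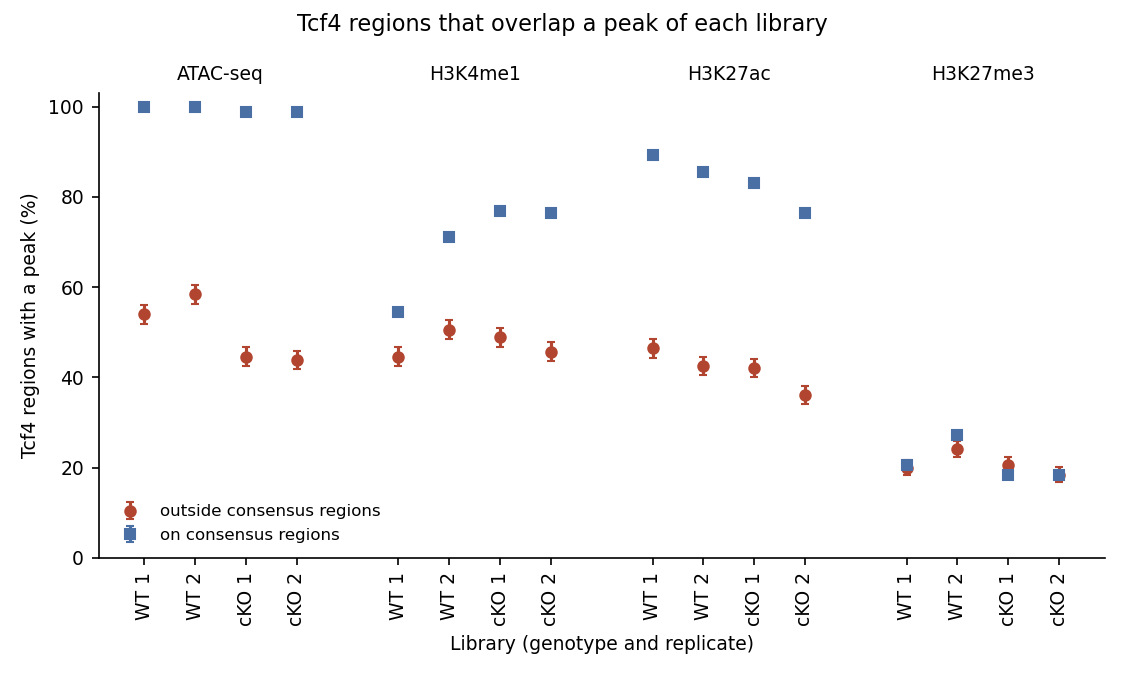
Share of Tcf4 regions with a peak in each of the 16 other libraries (y, in percent; bars are 95% Wilson intervals), with libraries on x by genotype and replicate. The sites outside consensus regions (red circles) sit below the regions on consensus regions (blue squares) for H3K4me1 and H3K27ac, and among them for H3K27me3. They also sit below them for ATAC-seq, which the rule used, so that gap is a description only.

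The E-box core CAGCTG, searched within 75 bp of the summit, was found at 408 sites (18.3%, 16.8 to 20.0) and at 1713 regions on consensus regions (14.4%, 13.8 to 15.1). The difference was 3.87 points (2.19 to 5.64). As a background, 12.9% of windows of that length at the centres of all consensus regions held CAGCTG. Windows placed 1 kb to the right of the summits held it in 6.82% for the sites and 6.72% for the regions on consensus regions. Among single-copy regions the difference was larger, 26.2% against 14.6% or 11.6 points (9.14 to 14.2), and it was 6.47 points (3.26 to 9.84) among those away from promoters. Over all copy numbers the sign turned away from promoters, at 19.0% against 22.4% or -3.34 points (-5.57 to -1.04). Without the sites that had an ATAC-seq peak in any library it was 0.231 points (-2.10 to 2.86). Multi-copy sites held the core in 8.63%.

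The core gathered over a broad stretch around the summits. In bins of 25 bp, 4.67% to 6.69% of the sites had a core starting in each bin from 150 bp before to 150 bp after the summit. The 2 central bins averaged 5.48%, and the 16 bins from 300 to 500 bp away averaged 2.20%, a ratio of 2.49. On consensus regions the same ratio was 1.92. The general E-box CANNTG was found at 44.9% of the sites and 46.8% of the other regions, a difference of -1.87 points (-4.11 to 0.387) that did not exclude 0 and turned to 12.7 points (9.79 to 15.6) among single-copy regions. Away from promoters it was -0.0438 points (-3.60 to 3.41) among single-copy regions and -19.4 (-22.1 to -16.6) over all copy numbers. Of the other E-box forms, CAGATG was at 13.6% of the sites and 10.2% of the regions on consensus regions, and CAGGTG at 10.3% and 11.7%. The general form was more frequent 1 kb to the right of the same summits, at 56.3%, where CAGATG was at 11.9% and CAGGTG at 12.5%. The regions on consensus regions shared this, with CANNTG at 53.5% of windows 1 kb to the right of their summits.

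**Figure D4:**
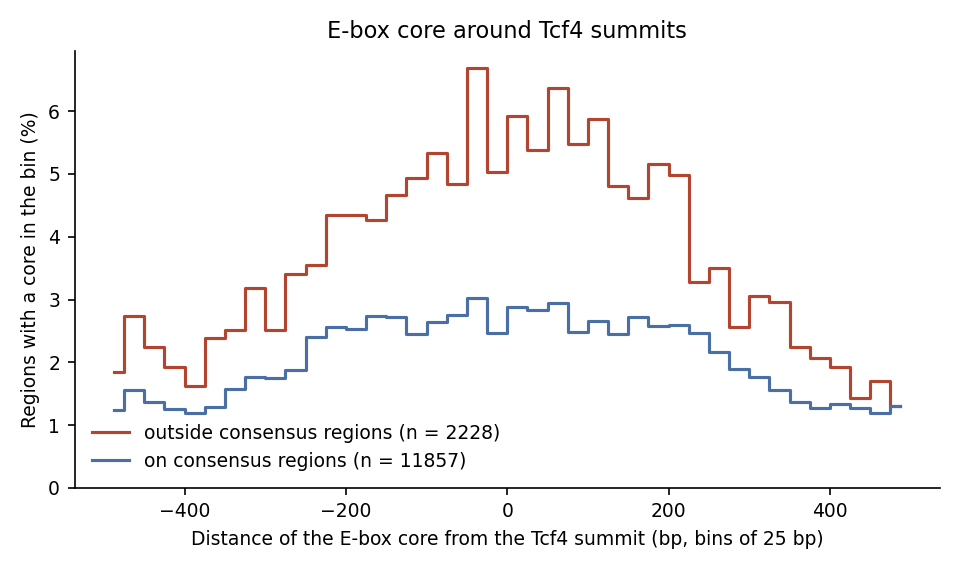
Share of Tcf4 regions with a CAGCTG core that starts in each bin of 25 bp (y, in percent) by distance from the Tcf4 summit (x, in bp). Both the 2228 regions outside (red) and the 11857 on consensus regions (blue) hold more cores near the summit, and the red line stays between 4.67% and 6.69% within 150 bp of the summit.

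A group of sites carried the core many times over. At least 3 CAGCTG cores within 75 bp of the summit were found at 90 sites (4.04%, 3.30 to 4.94) and at 26 of the 11857 regions on consensus regions (0.219%, 0.150 to 0.321). This class was chosen after the values were seen and is given without a test. Of the 90 sites, 65 had no ATAC-seq peak in any library, 45 had no peak of any other library, and 41 were single-copy. Their median smaller fold enrichment was 5.75, against 4.46 at sites with 1 or 2 cores and 4.78 at sites without the core. Among single-copy sites with no peak of any other library, 21 of 65 (32.3%, 22.2 to 44.4) had at least 3 cores.

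Spacing of the cores was regular at many of these sites. Of the 86 such sites outside chromosomes 18 and Y, 61 had the same step between cores at least 2 times, and their commonest steps ran from 9 to 49 bp. The intron of Dnah2, a dynein heavy chain of cilia, held 8 cores at chr11:69459687-69460459, mostly in steps of 16 bp, as its sequence above shows. Tcf4 fold enrichment there was 8.23 and 9.44, and none of the 16 other libraries had a peak. The highest number was 9 cores, reached at chr8:127006142-127007130 by Rbm34 in steps of 17 bp (10.1 and 6.93) and at chr17:8346661-8348025 by Prr18 in steps of 15 bp (6.03 and 7.32). Tandem copies inside a window also raise its 32-mer count, and copies inside and outside the window were not counted apart.

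**Figure D5:**
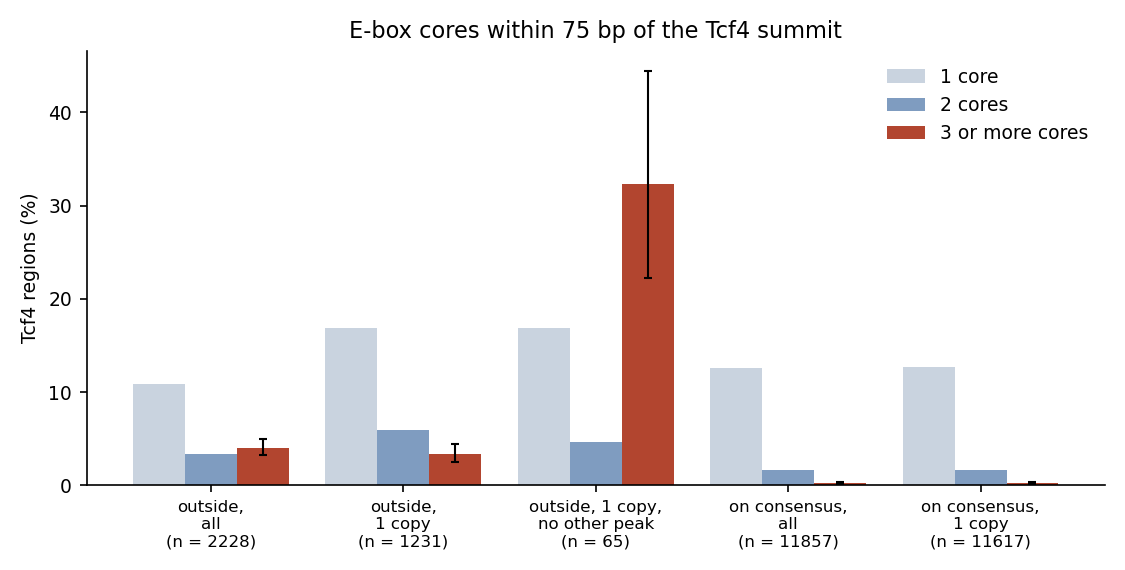
Share of Tcf4 regions (y, in percent) with 1, 2 or at least 3 CAGCTG cores within 75 bp of the summit, for the classes on x with their n. Bars on the last column of each class are 95% Wilson intervals, and single-copy sites without any other peak stand out at 32.3% with 3 or more cores.

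Some arrays did lie in marked chromatin. The site in an intron of Borcs5, chr6:134675756-134676373, held 4 cores and had Tcf4 fold enrichments of 11.1 and 12.9. H3K4me1 peaks of 4.30 and 3.48 in WT and 3.36 and 3.31 in Tcf4 cKO stood there. H3K27ac peaks of 3.79 and 2.93 stood there in WT, with none in Tcf4 cKO. The site in an intron of Ryr2, the ryanodine receptor calcium channel, held 5 cores and had Tcf4 values of 11.6 and 10.2. H3K27ac was 5.64 and 4.65 in WT and 6.46 and 5.64 in Tcf4 cKO there, with the higher WT value and the lower Tcf4 cKO value equal after rounding.

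Single-copy sites away from promoters carried enhancer marks in part. Of 872 such sites, H3K4me1 lay at 412 (47.2%) and H3K27ac at 194 (22.2%) in both WT libraries. Among 3858 single-copy regions away from promoters on consensus regions the shares were higher, at 71.4% and 60.5%. Outside chromosomes 18 and Y, 133 of the sites had both marks and 150 had H3K4me1 with no H3K27ac peak in any library. One site with both, chr12:27565989-27566624, lies 223788 bp from the start of Sox11, a transcription factor of immature neurons, and held 1 core. Tcf4 was 8.62 and 6.60, ATAC-seq 7.63 and 7.09 in WT and 7.01 and 6.56 in Tcf4 cKO, and H3K27ac 3.79 and 4.71 in WT and 4.36 and 5.86 in Tcf4 cKO. One with H3K4me1 alone, chr2:69402101-69402926 in an exon of Dhrs9, held 2 cores and had ATAC-seq peaks of 5.83 and 4.35 in WT and none in Tcf4 cKO, with H3K4me1 at 3.58 to 4.27 in all 4 libraries.

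At promoters, 359 single-copy sites were counted and 236 of them (65.7%) had H3K27ac in both WT libraries. On consensus regions 91.9% of 7759 single-copy promoter regions had it. Among the 236 sites the promoter of Pigyl, chr9:22156460-22157409, had Tcf4 at 9.05 and 8.71 and H3K27ac at 5.61 to 6.97. The promoter of Pcca, a mitochondrial carboxylase subunit, at chr14:122534173-122534841, had Tcf4 at 8.21 and 8.33 and H3K27ac at 5.85 to 8.14. ATAC-seq peaks of 11.4 to 13.5 stood at Pigyl and of 12.5 to 12.8 at Pcca, although neither lay on a consensus region.

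Sites by the genes that mark the cell types of the lineage were counted next. The 2228 sites had 1883 nearest protein-coding genes, and 1627 of those genes had 1 site. Of 20 genes of the oligodendrocyte lineage 3 were nearest to a site (6 sites, 0.269% of all), while 18 were nearest to a Tcf4 region on a consensus region (46 regions, 0.388%). Of 20 astrocyte lineage genes 4 had 4 sites (0.180%), against 20 regions on consensus regions (0.169%). Of 20 interneuron genes 4 had 4 sites (0.180%), against 24 regions (0.202%). These 4 sites include the one with mitochondrial 32-mers, 940375 bp from Nxph1. The microglial gene P2ry12 had 1 site, 23231 bp from its start in an intron of Med12l. That site was wholly soft-masked, had a median of 2866 copies and had no peak of any other library. The shares of the astrocyte and interneuron lists were thus near those on consensus regions. None of 11 genes for E proteins, Id factors and proneural factors, Tcf4 among them, had a site. On consensus regions 7 of the 11 had 15 regions, a share of 0.127%. None of 7 projection neuron and 6 endothelial or mural genes had a site, and each of these 2 lists had 2 regions on consensus regions (0.0169%). At shares this small, having no site is not read as a lack.

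Tnr, which encodes the extracellular matrix protein tenascin-R, had 4 sites and 8 regions on consensus regions. The site with the core, printed above, had Tcf4 at 4.43 and 4.39 and no peak of another library. The one at the promoter, chr1:159772995-159774010, had Tcf4 at 4.71 and 7.10, ATAC-seq in 3 of 4 libraries (4.33 to 4.96) and H3K27ac in replicate 1 of each genotype (4.06 and 4.71). The site by Bcas1, a gene of early myelinating oligodendrocytes, had Tcf4 at 4.88 and 6.32. Its H3K4me1 peaks of 3.31 and 3.55 were in Tcf4 cKO only. No site of the oligodendrocyte list had H3K27ac in both WT libraries.

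Among astrocyte lineage genes the strongest site, chr16:30155296-30156460, lay 89607 bp from the start of Hes1, a Notch target, with Tcf4 at 5.83 and 6.46. The site nearest to Sox9, which specifies glia, lay 275084 bp away at chr11:112506900-112507359, with Tcf4 at 4.88 and 5.60 and H3K27ac of 3.54 in WT library 1 alone. The intronic site of Nfia, a factor of gliogenesis, had H3K27ac in all libraries, 4.45 and 4.88 in WT and 4.75 and 5.10 in Tcf4 cKO, and Tcf4 at 4.32 and 5.12, with a median of 4 copies. None of these 3 had a mark in both libraries of one genotype and in neither of the other.

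Shares of marked sites were then compared between WT and Tcf4 cKO. With 2 libraries a genotype, the exact two-sided permutation test cannot go below p = 0.33, so no difference could pass 0.05. H3K27ac covered 46.5% and 42.5% of the sites in WT and 42.0% and 36.1% in Tcf4 cKO. The means were 44.5% ± 2.76 and 39.1% ± 4.16 (SD, n = 2 each), a difference of -5.43 points (exact permutation p = 0.333). It ran from -8.37 without Tcf4 cKO replicate 1 to -2.49 without Tcf4 cKO replicate 2. The H3K27ac lists themselves held 28413 and 24477 peaks in WT and 26644 and 22026 in Tcf4 cKO, and their part in this value was not tested. On consensus regions the H3K27ac means were 87.4% and 79.7%.

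H3K4me1 covered 44.6% and 50.6% of the sites in WT and 48.9% and 45.7% in Tcf4 cKO, so the genotypes overlapped (47.6% ± 4.22 and 47.3% ± 2.25, exact permutation p = 1, n = 2). On consensus regions the WT values of 54.4% and 71.1% were both below the Tcf4 cKO values of 76.8% and 76.5%, while the H3K4me1 lists grew from 51510 and 59526 peaks to 72790 and 65049. Whether the genotype effect differs between the 2 kinds of Tcf4 region was not tested. H3K27me3 covered 20.0% and 24.1% of the sites in WT and 20.5% and 18.4% in Tcf4 cKO, with overlapping groups (exact permutation p = 0.667, n = 2). ATAC-seq peaks covered 53.9% and 58.4% in WT and 44.6% and 43.9% in Tcf4 cKO, values that bear on the rule and are not tested.

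Single sites with a mark in both libraries of 1 genotype and in neither of the other numbered 295. H3K27ac was present in WT alone at 72 sites (3.23%), where 3.66% of all reproducible Tcf4 regions were called, and in Tcf4 cKO alone at 33 (1.48%), where the background was 0.625%. H3K4me1 was present in WT alone at 80 sites (3.59%, background 1.15%) and in Tcf4 cKO alone at 61 (2.74%, background 5.28%). H3K27me3 was present in WT alone at 39 sites (1.75%, background 3.28%) and in Tcf4 cKO alone at 25 (1.12%, background 1.37%). H3K4me1 in WT alone and H3K27ac in Tcf4 cKO alone were thus above the background, H3K27ac in WT alone and H3K27me3 in Tcf4 cKO alone near it, and the other 2 below it. Both of the first 2 counts are untested. ATAC-seq peaks, which the rule used, were in WT alone at 157 sites (7.05%, background 1.63%) and in Tcf4 cKO alone at 6 (0.269%, background 0.0426%), and nothing is read from these.

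Single-copy sites were found among the strongest of those calls, except for H3K4me1 in WT alone. The 3 sites of that class with the strongest Tcf4 were all multi-copy. Among them were chr5:151734386-151734869, with a median of 1798 copies, and chr2:121522272-121522908, with a median of 3. H3K27ac was in WT alone at the Borcs5 array described above and at chr4:89264705-89265041, in an intron of the lincRNA Gm12606 and 17265 bp from the start of Cdkn2a, a cell cycle inhibitor, with 5.92 and 6.34. H3K27ac was in Tcf4 cKO alone at chr1:183299126-183299554 in an intron of Aida, with 4.40 and 5.35, where H3K27me3 was in all 4 libraries at 7.20 to 8.37. H3K4me1 was in Tcf4 cKO alone at chr10:37812398-37813236, 673763 bp from the start of Marcks, with 4.85 and 4.88, while H3K27ac was in all libraries there at 4.76 to 5.55. H3K27me3 was in Tcf4 cKO alone at the promoter of Cyb5r3, chr15:83171673-83172785, with 3.30 and 3.18. H3K27me3 was in WT alone at the promoters of Pigyl, with 3.34 and 3.61, and of 0610009B22Rik, with 3.55 and 3.75.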

How the data were processed

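Reads of each library were trimmed with Trim Galore, aligned to mm10 with Bowtie 2 and filtered with Samtools for uniquely mapped pairs without duplicates by the authors, who called peaks with MACS2. The deposited peak lists give per peak a fold enrichment over local background (a ratio) and a -log10 p-value and -log10 q-value from MACS2, narrow for Tcf4, H3K4me1, H3K27ac and ATAC-seq and broad for H3K27me3. The deposited table of ATAC consensus regions, made by the authors with IDR, DiffBind and DESeq2, was used for its coordinates. Its log2 mean reads per genotype, which are pooled values, and the fold changes, p-values and FDR of the authors' own comparison were not used. The footprint table and the single-cell libraries were not used here. Depth is unknown, so intervals cover counting error over regions only.

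Peaks of both Tcf4-tag libraries that overlapped or touched were merged, without the mitochondrial genome. The summit of a region was that of its peak with the highest fold enrichment. An overlap was at least 1 bp, and a mark was assigned where both WT libraries had a peak. Shares were compared as differences with Newcombe intervals from Wilson intervals, called different where the 95% interval excludes 0, and genotypes with exact permutation tests over libraries. The intervals take regions as independent, although 656 sites (29.4%) share a 32-mer with another site, so they may be too narrow. Motif cores were searched on both strands within 75 bp of summits, and 32-mers were counted on GRCm38 (RefSeq assembly sequence), with genes from GENCODE M21. The members and gene lists were chosen with earlier results of these data known. Named sites are the 10 with the highest smaller fold enrichment outside chromosomes 18 and Y, up to 3 per gene list and up to 3 per mark and genotype. The E-box arrays, sequence families, accessibility classes and further single-copy sites were chosen after their values were seen. Overlaps, distances, merging, motif search, copy counts and the intervals were tested on simulated data. Sequence families, shifted windows and nearest genes were not. Alternatives covered peak thresholds, overlap, replicates, windows and start sites. Python 3.11.15, numpy 2.4.6, pandas 2.3.3, numba 0.67.0 and matplotlib 3.10.9 were used. Some sites are not reported here.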

Additional observations from a re-analysis of the deposited data

How the results depend on the processing

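The number of sites, 2228, was 1056 with Tcf4 peaks of -log10 q of at least 5, 838 without sites that had an ATAC-seq peak, 1231 with single-copy summits alone, and 3896 to 7961 when 1 Tcf4-tag replicate was left out, since fewer peaks must then coincide. Sites with a mark in 1 genotype alone were 295 of 2228 in the main setting and 184 of 2228 with mark peaks of -log10 q of at least 5. They were 161 of 1056 with the stricter Tcf4 peaks, 86 of 838 without ATAC-seq peaks and 176 of 1231 with single-copy summits. Without Tcf4-tag replicate 1 they were 391 of 3896, and without replicate 2 they were 824 of 7961. Where the number of sites changed too, the counts alone do not show a rise or fall in the share. The H3K27ac and promoter differences kept their direction and their side of the threshold in all alternatives tried. The H3K4me1 difference lost its call with stricter mark peaks (-0.169 points) and with single-copy summits (-2.55). The H3K27me3 difference was -0.496 to -3.15 with 1 WT replicate, -2.66 to -2.65 with 1 Tcf4-tag replicate, -2.80 with single-copy summits, 0.980 with summits within 200 bp and 0.391 with single-copy summits away from promoters. CAGCTG lost its call without ATAC-seq peaks (0.231). The CANNTG difference was -5.39 with stricter Tcf4 peaks, -2.48 at 1 kb or more, -16.7 without ATAC-seq peaks, -5.91 in the stronger regions, -10.8 in windows of 150 bp to either side, and positive with 50 bp (2.62), single-copy summits (12.7) and without a Tcf4-tag replicate (0.574 to 5.22). The H3K4me1 genotype difference of -0.314 points turned to 0.237 with stricter Tcf4 peaks, 2.78 with stricter mark peaks and 0.224 with mark peaks over at least 50% of the region, and ran from -3.30 to 2.67 when 1 WT or Tcf4 cKO replicate was left out. The H3K27ac genotype difference of -5.43 ran from -8.37 to -2.49 when 1 WT or Tcf4 cKO replicate was left out, and was -1.59 with stricter mark peaks and -1.61 without ATAC-seq peaks. That of H3K27me3, -2.56, ran from -4.62 to -0.494. The CAGCTG difference was -3.34 away from promoters over all copy numbers, and CANNTG was -0.0438 with single-copy summits there. For these changes the cause was not tested, except where the construction above gives it.

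The replicate numbers are shared between genotypes but nothing says that they pair the samples. With the replicate block the genotype differences were -0.314 points for H3K4me1, -5.43 for H3K27ac and -2.56 for H3K27me3, the same means, and the smallest sign-flip p is 0.5. The single-copy alternatives were chosen after seeing the data. The lack of read counts limits every peak share, since a missing peak may be a weak one.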

Other observations

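The sites were clustered in places. Within 50 kb of another site lay 489 of them, and 24 clusters had at least 4. The keratin-associated gene cluster around Krtap10-4 on chromosome 10 (77741640 to 77862597) held 12 sites, all multi-copy and of a single sequence family, with a median smaller fold enrichment of 5.47. On chromosome 6 (47739250 to 47778648), 12 multi-copy sites nearest to Pdia4 had a median of 2.40 and an ATAC-seq peak in at least 1 library each. Per megabase of sequence, chromosome 15 held 1.25 sites, chromosome X 0.349 and chromosome Y 0.0908.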
